A study of Mus musculus with 4 samples.

Results

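The 9 genes examined here encode proteins of the M-band and the large scaffold proteins of the sarcomere: Myom1, Myom2, Myom3, Ttn, Neb, Mybpc1, Mybpc2, Mybph and Nebl. They were taken by gene symbol from a table of 24445 genes, and each symbol matched 1 row. The table compares primary myoblasts of Tet2 KO mice with those of WT mice, both of strain C57BL/6, with 2 RNA libraries per group. In the Tet2 KO animals exon 3 of Tet2 had been deleted in all tissues by homologous recombination, and the WT animals carried no such deletion. Satellite cells, the resident muscle stem cells, had been isolated from the hindlimb by a sorting gate that removed cells with CD45, CD11b, CD31 or Sca1 and kept cells with CD34 and integrin alpha 7. They were expanded in proliferation medium on collagen for at least 3 days and harvested as myoblasts. The study's general methods name adult male mice; whether the 2 libraries of a group came from separate animals was not stated.

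In the sarcomere, the contractile unit of striated muscle, thick filaments of myosin slide past thin filaments of actin. The M-band crosslinks the thick filaments at the centre of the unit, and the myomesins (Myom1, Myom2, Myom3) are its bridging proteins. Titin (Ttn) is an elastic filament that runs from the Z-disc, the border of the unit, to the M-band, while nebulin (Neb) lies along the thin filament, and both are among the largest proteins known. Myosin-binding protein C (the slow form Mybpc1 and the fast form Mybpc2) and its shorter relative Mybph bind the thick filament on either side of the M-band. Nebulette (Nebl) is a smaller relative of nebulin known mainly from the Z-disc of heart muscle. Myoblasts assemble sarcomeres as they leave the cell cycle and differentiate.

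Expression was given as FPKM, a number of sequenced fragments scaled to transcript length in kilobases and to a library of 1000000 fragments, with 1 value per gene and group. No value per library was used, so no value below has a replicate error and no difference was tested. A gene was kept when its mean over the groups was at least 1 FPKM, and it was called lower or higher when log2((Tet2 KO + 1) / (WT + 1)) was at or past 1 in size, a 2-fold limit on that scale. The values of low genes fell in steps that correspond to about 44000000 fragments behind the Tet2 KO values and 44800000 behind the WT values. The targeted gene, Tet2, was at 5.79 FPKM in Tet2 KO against 6.64 FPKM in WT; this value sums all exons and does not check the labels. The myoblast markers were present, with Myod1, the myogenic determination factor, at 313 FPKM in Tet2 KO against 336 FPKM in WT. Des, the muscle intermediate filament, was at 372 FPKM against 449 FPKM. None of the 6 myoblast identity genes was called, and their median log2 ratio was -0.10. All 13 leukocyte markers were detected and above WT in Tet2 KO, 10 of them past the limit, and their summed level was 479 FPKM against 122 FPKM. These mark cells of the kind that the gate removes, and their part in the results below was not tested.

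Of the 9 genes, 7 were kept, and all 7 had lower FPKM in Tet2 KO than in WT. Past the 2-fold limit were 5 of them, namely Myom2, Mybph, Myom1, Myom3 and Mybpc1. Across all genes, 142 of 11692 genes kept were called lower, which is 1.21%. The median log2 ratio was -1.13 over the 7 genes and -0.0044 over all genes kept. Ttn and Neb lay just outside the limit, Mybpc1 just inside it, and none of the 9 genes was called higher. Mybpc2 and Nebl were below 1 FPKM in both groups. The summed level of the 9 genes was 137 FPKM in Tet2 KO against 318 FPKM in WT. In bulk RNA of this kind, fewer differentiating cells and less of these transcripts per cell cannot be told apart.

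**Figure D1:**
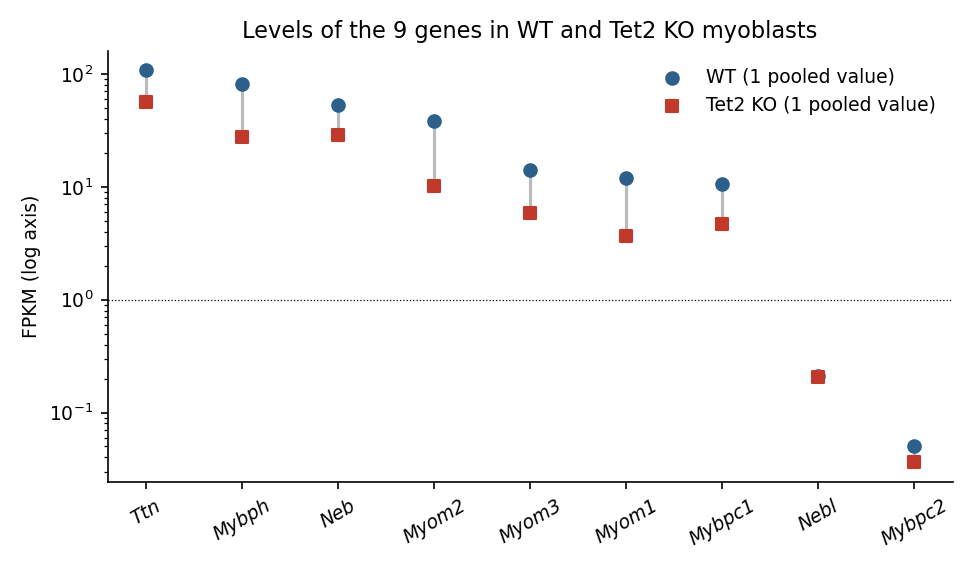
FPKM (log axis) of the 9 genes, ordered by WT level, with 1 pooled value per group (circles, WT; squares, Tet2 KO) and no error bars because no replicate values were used. The 7 genes at left are lower in Tet2 KO, from 56.2 against 108 FPKM for Ttn to 4.65 against 10.6 FPKM for Mybpc1, while Nebl and Mybpc2 lie under the dotted line at 1 FPKM.

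By ratio of summed levels, the myomesins showed a wider gap than the myosin-binding proteins or the giant proteins. WT was 2.87 times as high for the summed Mybpc1, Mybpc2 and Mybph, and 1.89 times for Ttn and Neb. Taken singly, Mybph had a lower log2 ratio, -1.54, than Myom1 and Myom3. Myom2, the fast-fibre and adult heart myomesin, was at 10.2 FPKM in Tet2 KO against 38.5 FPKM in WT. WT was thus 3.77 times as high, and the log2 ratio of -1.82 was the 16th lowest of all 11692 genes kept. Myom1, the myomesin shared by all striated muscles, was at 3.68 FPKM in Tet2 KO against 12.0 FPKM in WT, a WT level 3.25 times as high with a log2 ratio of -1.47. Myom3, found mainly in slow and intermediate fibres, differed least of the family, with 5.82 FPKM in Tet2 KO, 14.0 FPKM in WT and a log2 ratio of -1.13. Summed, the family was at 19.7 FPKM in Tet2 KO against 64.4 FPKM in WT, 3.27 times as high.

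The make-up of the family also differed between the groups. Myom2 gave 59.7% of the summed myomesin FPKM in WT and 51.8% in Tet2 KO. The share of Myom3 was 21.7% in WT and 29.5% in Tet2 KO, while that of Myom1 was 18.6% in WT and 18.7% in Tet2 KO. Myom2 was 2.75 times as high as Myom3 in WT and 1.75 times as high in Tet2 KO. Myom2 led the family in both groups.

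The study assayed DNA methylation at Myom2 with a pair of bisulfite primers, and no methylation value was analysed here. The region is shown because the study probed it. In the study this assay followed a search for genes with both lower RNA and more methylation in Tet2 KO myoblasts. The gap in Myom2 RNA is therefore no independent link to this locus. Matched to mm9 after C-to-T conversion, the primers frame 439 bases on the plus strand, chr8:15087401-15087839, inside intron 13 of the longest annotated Myom2 transcript and 29748 bases downstream of its start. The region holds 7 CpG dinucleotides, the sites at which DNA is methylated and Tet enzymes act. It also holds 3 E-boxes, the CANNTG letters that myogenic factors such as MyoD and myogenin bind, of which 1 reads CAGCTG. The primers are written as designed, and below them stand the first 300 genomic bases, chr8:15087401-15087700, with CpG in capitals.
Forward primer: gggtagggagtttttagttattg
Reverse primer: caaccaacataactacaaacca
Myom2 intron: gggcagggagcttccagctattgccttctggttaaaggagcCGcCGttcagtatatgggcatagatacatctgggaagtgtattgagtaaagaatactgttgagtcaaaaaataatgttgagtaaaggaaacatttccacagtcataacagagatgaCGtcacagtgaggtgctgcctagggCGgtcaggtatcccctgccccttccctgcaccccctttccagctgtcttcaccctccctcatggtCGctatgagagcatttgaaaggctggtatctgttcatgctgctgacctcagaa

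Among the giant proteins, titin had the highest level of the 9 genes. Ttn was at 56.2 FPKM in Tet2 KO against 108 FPKM in WT, a WT level 1.92 times as high. Its log2 ratio of -0.93 did not reach the limit and was the 161st lowest among all genes kept. Neb was at 28.8 FPKM in Tet2 KO against 53.2 FPKM in WT, 1.85 times as high, with a log2 ratio of -0.86. At a limit of 1.5-fold both would be called lower, as would 2.89% of all genes kept. The ratio of Neb to Ttn was 0.513 in Tet2 KO and 0.494 in WT, so the pair stood in nearly the same proportion in both groups.

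FPKM divides by transcript length, so the level of titin understates how much of the sequencing it takes. The longest annotated Ttn transcript has 347 exons and 106824 bases, and that of Neb has 157 exons and 22489 bases. Fragments were estimated with the longest transcript as the length of each gene and summed over the 20442 genes with an annotated length. Of this sum Ttn would account for 0.969% in WT, first of these genes. The sum is not the library total behind FPKM. In Tet2 KO it would account for 0.511% and come second, or first with 0.518% when the median length of the longer transcripts is used. Neb would account for 0.101% of fragments in WT and 0.0551% in Tet2 KO. The 7 genes kept would together take 1.11% of fragments in WT and 0.581% in Tet2 KO, most of it from Ttn. Which isoforms of Ttn were present cannot be read from a value per gene. These shares rest on the length assumed and on the genes summed.

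Of the thick filament binding proteins, Mybph and Mybpc1 were called lower. Mybph, a myosin-binding protein that lacks the first domains of Mybpc, was at 27.6 FPKM in Tet2 KO against 82.0 FPKM in WT. The WT level was 2.97 times as high and the log2 ratio was -1.54. Mybpc1 was at 4.65 FPKM in Tet2 KO against 10.6 FPKM in WT, 2.29 times as high, with a log2 ratio of -1.04. Mybph exceeded Mybpc1 in both groups, by a factor of 7.71 in WT and 5.95 in Tet2 KO. Mybph overlaps the gene Adora1 tail to tail on the opposite strand, and 661 bases or 36.2% of its transcript lie in annotated exons of Adora1. The kit does not mark strand, so reads in the overlap cannot be assigned from their strand. Adora1, an adenosine receptor gene, was itself called lower, at 5.71 FPKM in WT and with a log2 ratio of -1.07. Among the other genes kept the one overlap with exons of another gene was 453 bases of Ttn, 0.424% of its transcript.

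Mybpc2 and Nebl were hardly expressed. The fast form Mybpc2 was at 0.0363 FPKM in Tet2 KO against 0.0505 FPKM in WT, which corresponds to an estimated 5.71 and 8.09 fragments. Nebl was at 0.205 FPKM in Tet2 KO against 0.209 FPKM in WT, or an estimated 73.0 and 75.6 fragments. So few fragments do not allow a difference to be read for Mybpc2, and none was tested. Nebl was at nearly the same level in both groups. For comparison, the lowest of the 7 genes kept, Mybpc1 and Myom1, rested on an estimated 802 and 906 fragments in Tet2 KO. Mybpc3, the heart form of the family, was lower still, at 0.0181 FPKM in Tet2 KO against 0.0134 FPKM in WT. The 6 cardiac markers were all below 1 FPKM in both groups, the highest being Tnni3 at 0.543 FPKM in WT.

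The order of the levels differed between the groups at several places. In WT it ran Ttn, Mybph, Neb, Myom2, Myom3, Myom1, Mybpc1, Nebl and Mybpc2. In Tet2 KO Neb stood above Mybph, at 28.8 against 27.6 FPKM, and Mybpc1 stood above Myom1, at 4.65 against 3.68 FPKM. Without replicate values it cannot be said whether such neighbours differ beyond their spread. Set against all genes of the table, Myom2 was 2525th in level in WT and 6791st in Tet2 KO. Ttn was 865th in WT and 1681st in Tet2 KO.

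Measured relative to titin within each group, Neb stood nearly level while the other 5 genes kept stood lower in Tet2 KO. Myom2 stood at 35.7% of the Ttn level in WT and 18.2% in Tet2 KO. Mybph stood at 76.2% in WT and 49.2% in Tet2 KO, and Myom1 at 11.1% and 6.54%. Mybpc1 shifted less, from 9.88% in WT to 8.27% in Tet2 KO, and on the plain log2 scale Myom3 differed from Ttn by -0.33. Such ratios are taken within a group and do not depend on the scaling between the groups.

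**Figure D2:**
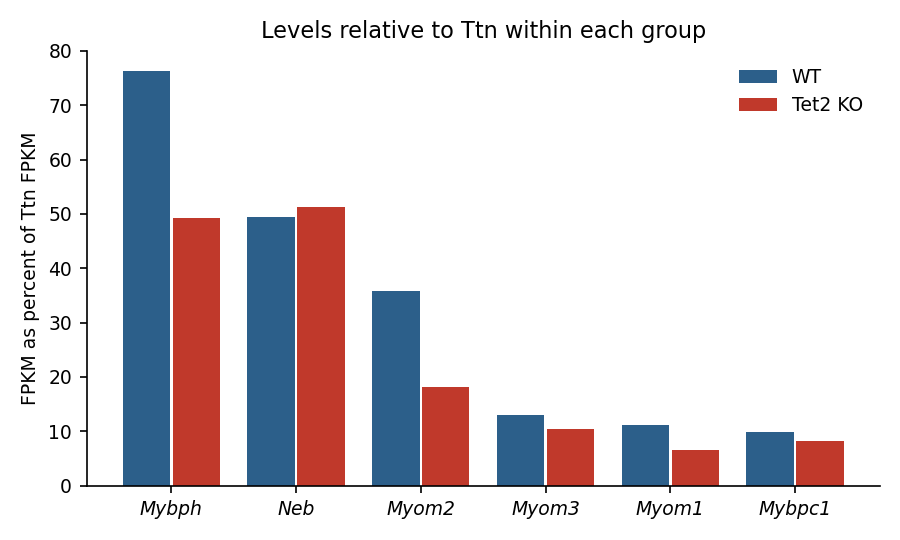
FPKM of 6 genes as a percent of the Ttn FPKM of the same group (bars from 0; WT and Tet2 KO, 1 pooled value each, no error bars). The Neb bars are nearly level, at 49.4% in WT and 51.3% in Tet2 KO, whereas the Myom2 bar goes from 35.7% to 18.2%.

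The same comparison was made with the main myosin of developing fibres and with myogenin. Myh3, the embryonic myosin heavy chain, was at 105 FPKM in Tet2 KO against 313 FPKM in WT. Mybph stood at 0.262 of the Myh3 level in both groups. Ttn, by contrast, stood at 0.344 of Myh3 in WT and 0.533 in Tet2 KO, and Neb at 0.170 and 0.273. Myog, the gene of the differentiation factor myogenin, was at 268 FPKM in Tet2 KO against 554 FPKM in WT. Relative to Myog, on the plain log2 scale with no pseudocount, Myom2 differed by -0.87, Myom1 by -0.66 and Mybph by -0.52, while Ttn differed by 0.11 and Neb by 0.16. Relative to Myod1 all 7 genes were lower in Tet2 KO, from -1.82 for Myom2 to -0.78 for Neb on the same scale.

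Against the whole table the 5 called genes lay at the lower edge of the distribution, a place that the 2-fold limit itself fixes. As low as Myom2 or lower were 0.137% of all genes kept. For Mybph this share was 0.265%, for Myom1 0.308%, for Myom3 0.949% and for Mybpc1 1.15%. The shares for Ttn and Neb were 1.38% and 1.63%. In the other direction 243 genes, or 2.08%, were called higher.

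**Figure D3:**
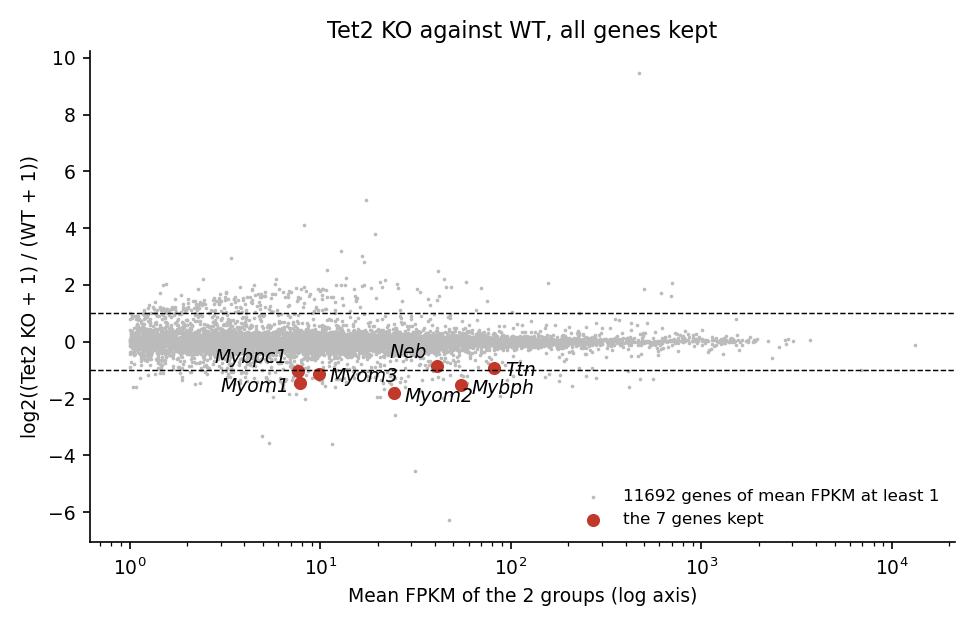
Log2 ratio of Tet2 KO to WT with 1 FPKM added (vertical) against the mean FPKM of the groups (horizontal, log axis) for the 11692 genes kept (grey) and the 7 genes named in red, with dashed lines at the 2-fold limits. The red points run from -0.86 for Neb to -1.82 for Myom2, below the main body of genes at their level.

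The promoters were examined because genes of this set were lower together and lie apart in the genome. In mm9 the loci are Myom1 at chr17:71368897-71476196, Myom2 at chr8:15057653-15133419, Myom3 at chr4:135315630-135371482, Mybpc1 at chr10:87981024-88067897, Mybpc2 at chr7:51757069-51780039 and Mybph within chr1:136090025-136132034. Ttn, Neb and Nebl share chromosome 2, at chr2:76542041-76820604, chr2:51992167-52194318 and chr2:17268361-17652695. The 250 bases before the start of the longest coding transcript (GENCODE vM1 on mm9) were searched on both strands for an E-box (CANNTG), for CAGCTG, which is included in it, for the MEF2 consensus and for the CArG box of serum response factor. Of the 9 windows 8 held an E-box, as did 62.2% of 18643 such windows of genes in the table. CAGCTG was found in Mybph and Mybpc1, and in 12.0% of all windows. The MEF2 consensus was found in Myom2 and Myom3, and in 2.81% of all windows. The CArG box was found in Myom1, Myom2 and Neb, and in 1.24% of all windows. The windows held from 0 CpG in Mybph to 11 in Mybpc1, beside a median of 10 over all windows. A match of letters is a description and shows no binding.

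The 4 windows below include those of the genes with the lowest ratios when 1 FPKM was added (Myom2 and Mybph). With no pseudocount Myom1 stood below Mybph, at -1.70 against -1.57. The other windows are of the giant proteins next to the limit (Neb and Ttn). All windows are written in the direction of transcription with E-boxes in capitals. They lie at chr8:15057403-15057652 on the plus strand, chr2:52194319-52194568 and chr2:76820513-76820762 on the minus strand, and chr1:136089775-136090024 on the plus strand. The E-box of Mybph starts 79 bases before the annotated start, and that of Myom2 reads CATCTG. Neb carries E-boxes 48 and 11 bases before its start.
Myom2: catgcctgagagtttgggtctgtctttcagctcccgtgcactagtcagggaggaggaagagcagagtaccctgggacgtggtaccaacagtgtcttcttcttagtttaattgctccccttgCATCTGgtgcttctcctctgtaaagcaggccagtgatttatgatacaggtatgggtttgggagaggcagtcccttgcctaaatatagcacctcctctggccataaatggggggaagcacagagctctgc
Neb: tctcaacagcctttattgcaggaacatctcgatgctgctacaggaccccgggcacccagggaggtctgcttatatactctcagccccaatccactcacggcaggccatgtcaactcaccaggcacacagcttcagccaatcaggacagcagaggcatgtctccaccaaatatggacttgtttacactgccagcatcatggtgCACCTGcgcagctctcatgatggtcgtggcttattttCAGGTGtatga
Ttn: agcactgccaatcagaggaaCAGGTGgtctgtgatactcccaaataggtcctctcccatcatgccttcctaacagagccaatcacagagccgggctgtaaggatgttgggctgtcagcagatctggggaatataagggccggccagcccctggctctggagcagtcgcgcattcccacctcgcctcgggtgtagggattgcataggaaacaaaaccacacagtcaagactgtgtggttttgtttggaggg
Mybph: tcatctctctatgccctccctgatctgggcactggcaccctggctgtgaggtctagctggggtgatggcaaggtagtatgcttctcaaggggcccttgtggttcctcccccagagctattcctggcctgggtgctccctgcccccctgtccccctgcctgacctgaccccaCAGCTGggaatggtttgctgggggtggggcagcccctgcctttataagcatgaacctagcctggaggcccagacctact

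To place these genes among their partners, 5 lists of sarcomere genes were compared, which share some members. Of the 57 distinct genes 46 were kept, 27 of them called lower and 1 higher, beside 1.21% and 2.08% of all genes. In the thick filament list 9 of 10 genes kept were called lower, with a median log2 ratio of -1.30. Myh1, Myh8, Myh3, Myh7 and Myl4 had the lowest ratios, from -1.86 for the fast myosin heavy chain Myh1 to -1.31 for the light chain Myl4. The most abundant was the light chain Mylpf, with 321 FPKM in Tet2 KO against 790 FPKM in WT, followed by Myl4 with 274 and 681 FPKM. Smyd1, a methyltransferase needed for myosin assembly, was the exception, with a log2 ratio of -0.82. Reads of the near-identical myosin heavy chain genes can be split between them by the counting, so their single values are uncertain.

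In the list of titin-binding and titin-linked proteins 8 of 13 genes were called lower and 1 higher, with a median of -1.27. Csrp3, a muscle LIM protein, had the lowest ratio, with 17.3 FPKM in Tet2 KO against 71.1 FPKM in WT. The titin cap Tcap and the Z-disc actinin Actn2 both had a log2 ratio of -1.59. Trim63 and Fhl1, a ubiquitin ligase and a LIM protein that bind titin, had log2 ratios of -1.64 and -1.47. The stress-responsive ankyrin repeat proteins that bind the spring region of titin did not share a direction. Ankrd23 was called lower at -1.27, Ankrd2 was called higher with 8.49 FPKM in Tet2 KO against 3.34 FPKM in WT, and Ankrd1 was at 428 and 425 FPKM. The small heat shock protein Cryab, next in abundance to Ankrd1, was at 67.4 FPKM in Tet2 KO against 111 FPKM in WT.

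Of the M-band partners 3 of 10 genes kept were called lower, with a median of -0.67. Among them were the ubiquitin ligase Trim63 and its relative Trim54, with log2 ratios of -1.64 and -1.16. The most abundant partners were the autophagy receptors Sqstm1, with 221 FPKM in Tet2 KO against 255 FPKM in WT, and Nbr1, with 43.8 and 46.8 FPKM.

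In the list of the nebulin family and thin filament length 7 of 11 genes kept were called lower, with a median of -1.30. Nrap, a nebulin relative of young myofibrils, was at 9.81 FPKM in Tet2 KO against 33.5 FPKM in WT, a wider gap than that of Neb. The leiomodins Lmod2 and Lmod3, which lengthen actin filaments, had log2 ratios of -1.50 and -1.44. Klhl41, which stabilises nebulin, and the actin-binding Xirp2 had -1.37 and -1.32. Lasp1, the nebulin relative of non-muscle cells, was on the other side at 43.3 FPKM in Tet2 KO against 35.1 FPKM in WT. The muscle cofilin Cfl2, the most abundant gene of the list, was at 52.0 FPKM in Tet2 KO against 69.8 FPKM in WT.

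Among 8 kept genes with titin-like immunoglobulin domains 3 were called lower, with a median of -0.95. Among them were the kinase-like Alpk3 at -1.30 and myopalladin (Mypn) at -1.12, whereas palladin (Palld) was at -0.97. The regulators of differentiation had a median of -0.27, and 2 of 7 were called lower. These were Mef2c at -1.26, a factor that acts with myogenin on muscle genes, and Myog at -1.04. Mef2a, another abundant member, had a log2 ratio of -0.57.

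**Figure D4:**
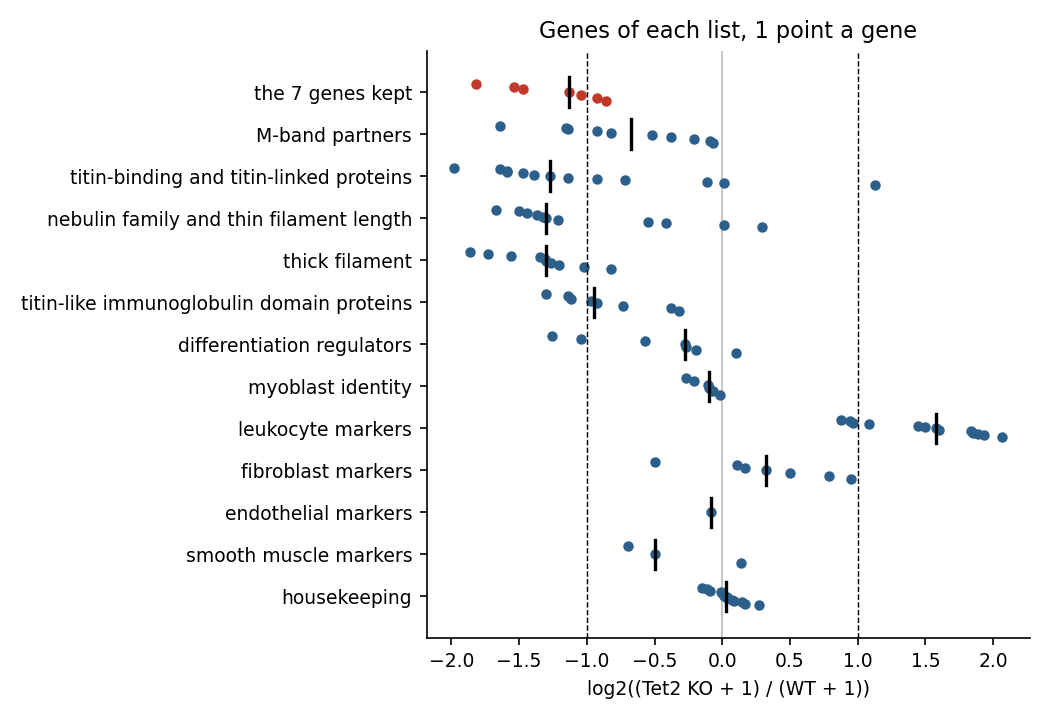
Log2 ratio of Tet2 KO to WT with 1 FPKM added for each gene kept (points) of the set described here (red) and of 12 other lists (blue), with the median of each list as a black bar and dashed lines at the 2-fold limits. The thick filament genes lie from -1.86 to -0.82, the myoblast identity genes from -0.27 to -0.02 and the leukocyte markers from 0.88 to 2.07.

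The non-muscle lists were read beside these values. The leukocyte markers had a median log2 ratio of 1.58, led by lysozyme (Lyz2) with 253 FPKM in Tet2 KO against 59.5 FPKM in WT, followed by Ctss, Cd52, Tyrobp and Itgam, from 1.93 for Ctss to 1.84 for Itgam. None of the 7 fibroblast markers kept was called, but 6 were above WT in Tet2 KO and 1 below, with a median of 0.32. Their summed level was 207 FPKM in Tet2 KO against 178 FPKM in WT. The most abundant were Col3a1 with 171 and 152 FPKM and Col1a2 with 15.8 and 8.71 FPKM. Of the endothelial markers only Pecam1 was kept, at 1.48 FPKM in Tet2 KO against 1.63 FPKM in WT. None of the 3 smooth muscle markers kept was called, and Acta2, which differentiating muscle also expresses, was at 146 FPKM in Tet2 KO against 236 FPKM in WT, and Smtn at 9.02 against 13.1 FPKM. The 14 housekeeping genes had a median of 0.02 and none was called, with Actb and Ppia, the most abundant, at 0.03 and -0.01. The part of the non-muscle markers in the lower levels of the M-band and giant protein genes was not tested.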

How the data were processed

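RNA of 2 WT and 2 Tet2 KO myoblast libraries had been prepared with the TruSeq RNA kit v2. As the study's methods state, the authors removed adapters and reads of low quality, aligned read pairs to mm9 with TopHat (TopHat2 2.0.13 in the submitters' processing notes) and estimated expression with Cuffdiff 2.2.1. The deposited FPKM values, 1 per gene and group, are per transcript length and scaled between the groups by that program. How the libraries were combined is not given in the sources used here, nor is the gene annotation. The table also holds log2 fold changes, test statistics, p-values and q-values of the authors' own comparison, which were not used. A group is therefore described by 1 value, with no error and no test.

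Ratios were computed as log2((Tet2 KO + 1) / (WT + 1)), which understates the change of low genes, over genes with a mean of at least 1 FPKM. The value of 1 fragment was estimated from the steps of FPKM times length in genes under 0.3 FPKM with a single annotated transcript. It is approximate, and the fragment numbers derived from it say nothing of the spread between libraries. Lengths, exons and transcript starts came from GENCODE vM1 on NCBIM37, the assembly of mm9, where 83.6% of the gene symbols were found. Table starts count from 0, so 1 was added.

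The 9 genes and the 13 gene lists were chosen with earlier results of these data known. Genes named besides the 9 are the called genes of each list up to the 5 largest, its 2 most abundant genes, genes that set a contrast with a relative, and Tet2, Myog and Myod1; Adora1 and the ones named for contrast were chosen after their values were seen. Some genes of the lists are not reported here by name. Alternatives covered the pseudocount, the filter, the scaling and the limit. The 2-fold limit was tried on simulated falls well past it, without the pseudocount and the filter. That trial says nothing about calls near the limit. The step estimate was also tried on simulated data. Python 3.11.15, numpy 2.4.6, pandas 2.3.3 and matplotlib 3.10.9 were used.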

Additional observations from a re-analysis of the deposited data

How the results depend on the processing

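No paired analysis was possible because the table holds 1 pooled value per group; for the same reason the replicate block and leaving out each library were not run. The count of 5 of the 9 genes called lower was the same under the pseudocount of 0.1, no pseudocount, median centring, TPM, upper quartile and housekeeping scaling, no filter and a mean of at least 5 FPKM. At 1.5-fold it was 7 and at 3-fold it was 1, Myom2. The filter of at least 5 FPKM kept the same 7 genes, so it could not change the count. The median of -1.13 moved to -1.25 with a pseudocount of 0.1 and to -1.26 with none, and with 1 gene left out to -1.26 (Myom3) or -1.30 (Ttn, Neb or Mybpc1). It was nearer 0 with no filter, at -1.04, and with Myom1, Myom2 or Mybph left out, at -1.09. No scaling turned the direction of the 7 genes kept, and upper quartile scaling brought Ttn to -0.99. The scalings were too small to turn them. Over all genes kept the median shift was -0.057 under upper quartile scaling and 0.0034 under TPM, and housekeeping scaling subtracted 0.033. Nebl turned from -0.0043 to 6.75e-05 under median centring, as a ratio near 0 can.

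Over the whole table, 215 genes were called lower with a pseudocount of 0.1 and 224 with none; 109 were called higher at a mean of at least 5 FPKM; 338 were lower and 435 higher at 1.5-fold, and 25 and 81 at 3-fold. The titin-like list had 5 genes called lower with a pseudocount of 0.1 or none, 1 at a mean of at least 5 FPKM, 6 at 1.5-fold and 0 at 3-fold. The fibroblast markers called higher went from 0 to 1 with a pseudocount of 0.1, with none and under TPM, and to 2 at 1.5-fold. At 1.5-fold the M-band partners had 5 called lower and the smooth muscle markers 1. At 3-fold the M-band partners had 1, the titin-linked list 4, the nebulin list 1, the thick filament list 2, the regulators of differentiation 0 and the leukocyte markers 6 called higher. TPM raised all values before the same 1 was added, so it acted as a smaller pseudocount. The other moves come with another limit, filter or pseudocount. The fragment share of Ttn was 0.982% in WT and 0.518% in Tet2 KO, first in both groups, with the median length of its longer transcripts, an alternative chosen after seeing the data.

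The missing spread between libraries limits all differences, most of all those near the limit (Mybpc1, Ttn and Neb). Low expression limits Mybpc2 and Nebl.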

Other observations

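Over the 2 group values, the genes nearest to Myom2 in log2(FPKM + 1) were Smpx, a small muscle protein, with 11.7 FPKM in Tet2 KO against 38.1 FPKM in WT, Nrap with 9.81 and 33.5 FPKM, and Fhl1 with 12.0 and 35.2 FPKM. Nearest to Ttn was Flnc, the muscle filamin, with 56.4 FPKM in Tet2 KO against 96.2 FPKM in WT, at a distance of 0.160. It was followed by the nuclear RNA Neat1 with 61.8 and 95.5 FPKM and by Svbp with 57.1 and 91.4 FPKM. Each likeness rests on 1 value per group.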
